A study of Sus scrofa with 6 samples.

Results

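Genes of the secretory and basal cells of the airway lining were followed in piglet lung across birth. They were taken by symbol: the secretoglobins SCGB1A1, SCGB3A1 and SCGB3A2, the mucins MUC1, MUC5B and MUC5AC, the BPI-fold proteins BPIFA1 and BPIFB1, and the basal cell genes KRT5 and TP63. Of these 10 genes, 6 could be matched to a row among the 14579 mRNAs of the table, which were SCGB1A1, SCGB3A1, SCGB3A2, BPIFA1, BPIFB1 and TP63. MUC1, MUC5B, MUC5AC and KRT5 had no identifier matched by symbol and were not analysed here. The lungs came from 6 female hybrid piglets with a Tibetan sire and a Meishan dam, each from a different sow. The fetal group was 3 piglets taken just before term (Fetal1, Fetal2 and Fetal3), and the neonatal group was 3 piglets taken 2 days after birth (Neonatal1, Neonatal2 and Neonatal3). RNA of the whole lung tissue was sequenced after depletion of ribosomal RNA, with 1 library per piglet, and the part of the lung that was sampled is not given in the sources used here. Levels are FPKM, fragment counts scaled for transcript length and library size, so that genes can be compared per length. Means are given ± SD over the lungs of a group (n = 3 each).

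The conducting airways are lined by ciliated cells, secretory cells and basal cells, while the alveoli are lined by alveolar type I and type II cells. Club cells, the main secretory cells of the small airways, release secretoglobins into the airway fluid, and goblet cells and glands release gel-forming mucins. BPI-fold proteins are secreted onto the airway surface, where they take part in defence against bacteria, and basal cells are the stem cells of the airway epithelium, kept by the transcription factor TP63. In whole tissue, a lower level of a marker gene can mean fewer cells of the type or less of its RNA per cell, and these cannot be told apart.

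The libraries were those of lung: the surfactant gene SFTPC stood between 3171 and 8790 FPKM, the alveolar type I gene AGER between 396 and 767 FPKM, and FOXJ1, the regulator of motile cilia, between 38.8 and 67.1 FPKM. The FPKM of all mRNAs summed to between 339491 in Fetal2 and 777982 in Neonatal3. Their medians lay closer together, between 4.99 FPKM in Fetal2 and 6.11 FPKM in Neonatal3. The main comparison used the FPKM without further scaling. Read counts per gene are not part of the table, so no counting error was computed, and the spread between the 3 lungs of a group is the error used throughout. Among the 6 genes analysed, SCGB1A1 was at 0.213 FPKM in Neonatal2 and BPIFA1 at 2.48 FPKM in Fetal1, each far below the other lungs of the group, so results for these genes are given with and without that lung. The groups were compared with limma, fitted to log2(FPKM + 1) of all 14579 mRNAs, and p values were adjusted by Benjamini-Hochberg over the same mRNAs. A gene was past the threshold at an adjusted p of at most 0.05. The log2(FC) is the neonatal minus the fetal mean on that scale, which understates changes of genes with low FPKM. Exact permutation tests of single genes cannot go below a two-sided p of 0.1 with 3 lungs against 3.

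Of the 6 genes, 1 was past the threshold, BPIFB1, which was higher in the neonatal group (16.7% of the members, against 6.87% of all mRNAs). BPIFB1 and SCGB1A1 were without overlap between the groups, in opposite directions. Such 2 genes of 6 stand near the 30.5% of all mRNAs whose groups did not overlap. The other 4 genes overlapped between the groups. The log2(FC) of 3 genes was above 0 and that of 3 below 0, and their median was -0.0050, beside a median of 0.13 over all mRNAs. The median over all mRNAs moved to -0.0090 with median-of-ratios scaling, and differences are read against that shift.

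**Figure D1:**
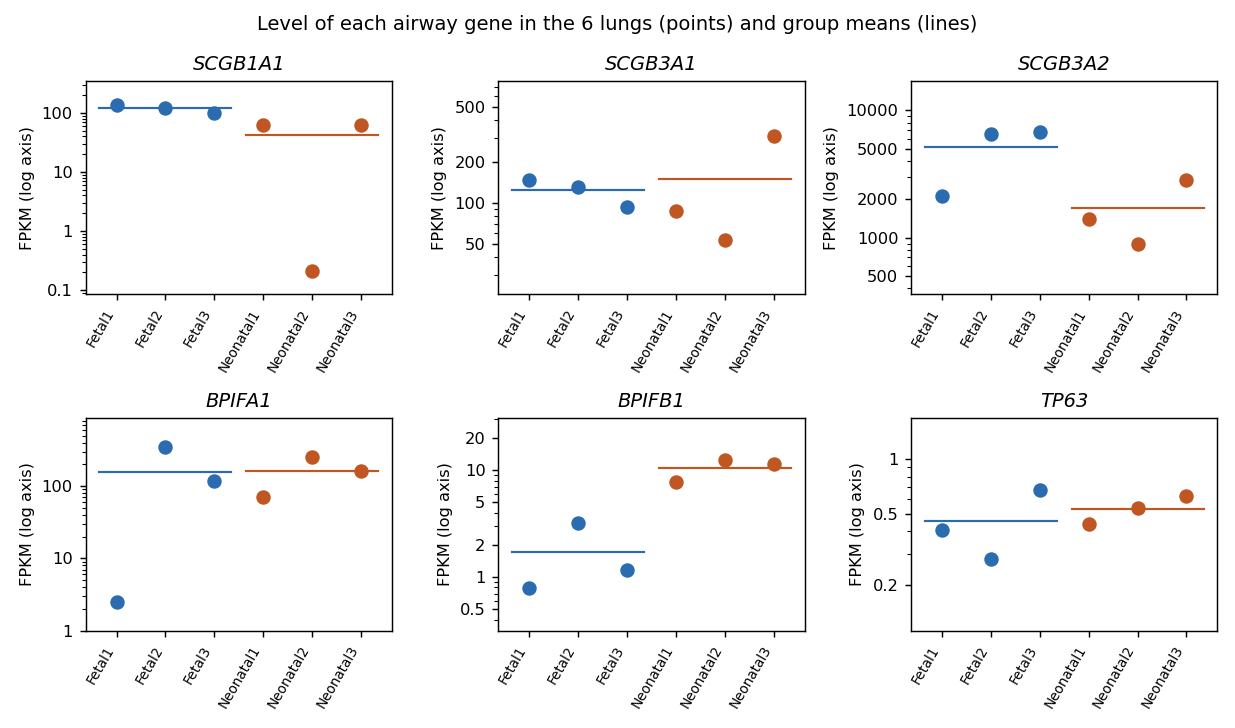
FPKM of SCGB1A1, SCGB3A1, SCGB3A2, BPIFA1, BPIFB1 and TP63 on a log axis, with 1 point for each lung (blue, fetal; orange, neonatal) and a line at the mean of each group. The neonatal points of BPIFB1 all lie above the fetal ones and those of SCGB1A1 all lie below, with Neonatal2 at 0.213 FPKM and, in the panel of BPIFA1, Fetal1 at 2.48 FPKM.

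SCGB1A1 encodes the club cell secretory protein, the classical marker of these cells. Its level was 139, 119 and 99.8 FPKM in Fetal1, Fetal2 and Fetal3, and 62.2, 0.213 and 62.0 FPKM in Neonatal1, Neonatal2 and Neonatal3. All neonatal lungs were below all fetal lungs, and 2 of them lay close together while Neonatal2 was almost without a signal. The fetal mean was 119 ± 19.3 FPKM and the neonatal mean 41.5 ± 35.7 FPKM. The log2(FC) was -2.82 (standard error 1.41, 95% interval from -6.10 to 0.47, adjusted p = 0.265), which is not past the threshold, and the exact permutation test gave the smallest two-sided p this design allows, 0.1. Without Neonatal2 the neonatal mean was 62.1 FPKM, the fetal mean was 1.92 times as high, and the log2(FC) was -0.92 (adjusted p = 0.118). The size of the difference therefore rested on Neonatal2, while its sign was the same with any lung left out.

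SCGB3A2, a secretoglobin made in the airways from early in lung development, was the most abundant of the 6 genes in every lung. It stood at 2136, 6558 and 6790 FPKM in Fetal1, Fetal2 and Fetal3, whereas Neonatal1, Neonatal2 and Neonatal3 had 1406, 899 and 2844 FPKM. The groups overlapped because Neonatal3 exceeded Fetal1, but the other fetal lungs were more than 2 times as high as any neonatal lung. Ranked by FPKM among the 14579 mRNAs, SCGB3A2 held rank 20, 3 and 7 in the fetal lungs and rank 51, 110 and 49 in the neonatal lungs. Its means were 5161 ± 2622 and 1717 ± 1009 FPKM, 3.01 times higher before birth. The log2(FC) of -1.57 (standard error 0.69, 95% interval from -3.18 to 0.03) was not past the threshold (adjusted p = 0.213). It lay between -2.12 and -1.19 with each lung left out in turn.

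SCGB3A1, a secretoglobin of larger airways, showed no common direction. The fetal lungs had 147, 131 and 92.8 FPKM, and Neonatal1, Neonatal2 and Neonatal3 had 87.4, 53.9 and 311 FPKM. The highest and the lowest value of the series were thus both neonatal. With means of 124 ± 28.0 and 151 ± 140 FPKM, the log2(FC) was -0.09 (standard error 0.59, 95% interval from -1.48 to 1.30, adjusted p = 0.938). It was 0.44 without Neonatal2 and -0.81 without Neonatal3, so its sign depended on single lungs. In the fetal lungs SCGB3A1 and SCGB1A1 had nearly equal levels, with ratios of 1.06, 1.10 and 0.929, and in the neonatal lungs SCGB3A1 was 1.40, 253 and 5.01 times as high as SCGB1A1.

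The 3 secretoglobins together, nearly all of it SCGB3A2, made up 0.570%, 2.01% and 1.48% of the summed FPKM of the mRNAs in the fetal lungs. In the neonatal lungs their share was 0.317%, 0.158% and 0.413%, lower in each neonatal lung than in any fetal lung. This share also falls with the larger summed FPKM of the neonatal libraries. Neonatal2 had the lowest level of all 3 genes, and why was not tested. The summed FPKM of ciliated markers was 112 in Neonatal1, 126 in Neonatal2 and 130 in Neonatal3. How much airway each sample held is not known.

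BPIFB1, also known as LPLUNC1, is a secreted BPI-fold protein of goblet cells and airway glands. It was measured at 0.784, 3.18 and 1.15 FPKM in Fetal1, Fetal2 and Fetal3, whereas Neonatal1, Neonatal2 and Neonatal3 had 7.74, 12.4 and 11.4 FPKM. Each neonatal lung was above each fetal lung, and even the lowest neonatal value was more than 2 times the highest fetal one. The mean rose from 1.70 ± 1.29 to 10.5 ± 2.46 FPKM, 6.17 times, with a log2(FC) of 2.17 (standard error 0.35, 95% interval from 1.35 to 2.98, adjusted p = 0.0149). Without Fetal2, which had the highest fetal value, the fold between the means was 10.9, and it lay between 4.86 and 6.99 with any other lung left out. The log2(FC) stayed between 1.92 and 2.53, but the call was not always kept with fewer lungs. The adjusted p was 0.0650, 0.0679, 0.0783 and 0.0773 without Fetal1, Fetal3, Neonatal2 or Neonatal3, and BPIFB1 stayed past the threshold without Fetal2 or Neonatal1.

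BPIFA1, also known as SPLUNC1 or PLUNC, is among the most abundant proteins secreted in the upper airways, and in the Sscrofa11.1 assembly its gene lies next to BPIFB1 with 0 genes starting between them. BPIFA1 had 2.48, 353 and 119 FPKM in the fetal lungs and 70.5, 249 and 164 FPKM in the neonatal lungs. All neonatal values lay within the fetal range, since Fetal1 was the lowest and Fetal2 the highest of the 6 lungs. The fetal values spanned 142 times, the neonatal values 3.53 times. The means of 158 ± 178 and 161 ± 89.3 FPKM differed little, but the 95% interval of the log2(FC) of 1.44 ran from -2.15 to 5.03 (adjusted p = 0.599), which leaves room for a difference of several-fold either way. Without Fetal1 the log2(FC) was -0.52 (adjusted p = 0.697). Without Fetal2 it was 2.81 (adjusted p = 0.390), and the neonatal mean was 2.66 times the fetal mean. BPIFA1 exceeded BPIFB1 by 3.17, 111 and 103 times in the fetal lungs and by 9.11, 20.1 and 14.4 times in the neonatal lungs.

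TP63, the transcription factor that maintains basal cells, was near the lower end of what the table holds. It was at 0.403, 0.280 and 0.679 FPKM in the fetal lungs and at 0.438, 0.535 and 0.627 FPKM in the neonatal lungs. The neonatal values lay within the fetal range. The log2(FC) was 0.08 (standard error 0.21, 95% interval from -0.40 to 0.57, adjusted p = 0.831). Only 1 fetal value and 2 neonatal values exceeded the 0.5 FPKM by which the authors called an mRNA expressed, and a change at this level is compressed by the pseudocount of 1. With a pseudocount of 0.1 the log2(FC) was 0.25 (adjusted p = 0.801).

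**Figure D2:**
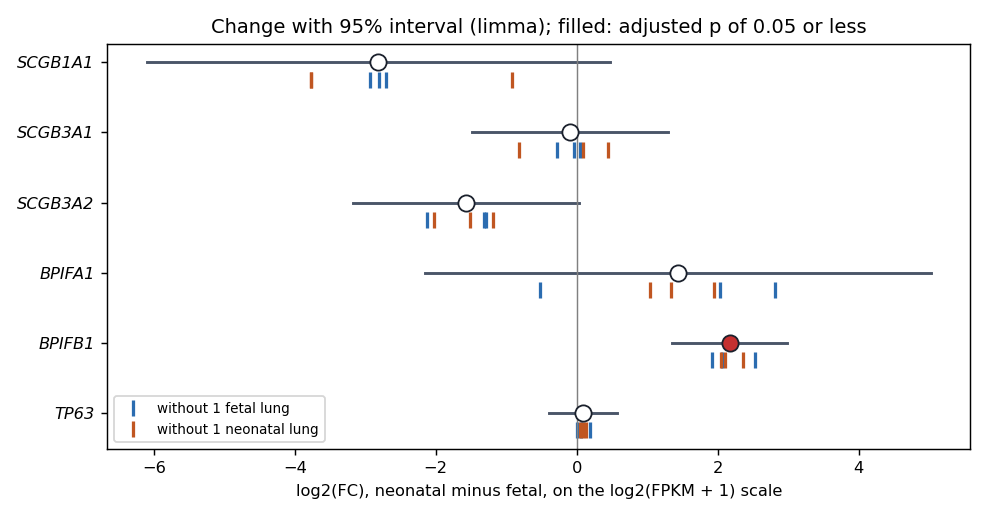
The log2(FC) of each gene (circle, filled where the adjusted p in limma is 0.05 or less) with its 95% interval (line), and below it the values with 1 fetal (blue) or 1 neonatal (orange) lung left out. BPIFB1, at 2.17, is filled and its interval stays above 0, the tick of SCGB1A1 farthest to the right (-0.92) is the value without Neonatal2, and that of BPIFA1 below 0 (-0.52) is the value without Fetal1.

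By mean FPKM the genes had the same order in both groups, SCGB3A2, BPIFA1, SCGB3A1, SCGB1A1, BPIFB1 and TP63. SCGB3A2 was apart from the gene after it in both groups, and so was BPIFB1 from TP63. The ranges of BPIFA1 and SCGB3A1, and those of SCGB3A1 and SCGB1A1, overlapped in both groups. BPIFA1 exceeded SCGB3A1 in 2 of 3 fetal lungs and in 1 of 3 neonatal lungs, so the order of the means did not hold in every lung. After birth SCGB1A1 also overlapped with BPIFB1, because of Neonatal2. The fetal values of SCGB1A1 and BPIFB1 did not meet, at 99.8 FPKM or more for the former and 3.18 FPKM or less for the latter.

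The genes most like SCGB1A1 and BPIFB1 over the 6 lungs were sought among 8678 mRNAs with a symbol and a mean of at least 1 FPKM, by Pearson's r on log2(FPKM + 1). Nearest to SCGB1A1 were TMOD4, ZNF621 and ZNF852, with r = 0.985, 0.983 and 0.983. All 3 were low in Neonatal2, as TMOD4 at 0.104 FPKM against 2.25 and 2.45 FPKM in the other neonatal lungs. Nearest to BPIFB1 were FLI1 (r = 0.995), CDC45 (r = 0.993) and P2RX3 (r = 0.991). CDC45, a DNA replication factor, had 5.58, 11.3 and 5.77 FPKM in the fetal lungs and 25.2, 32.1 and 26.8 FPKM in the neonatal lungs. These are descriptions over 6 points that share libraries, picked as the highest of many.

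Around these genes, 5 lists of airway genes were described, which hold relatives of the members, companions in secretory and basal cells, genes of the goblet cell programme and regulators of airway differentiation. Of their 120 genes 69 were measured, and 9 were past the threshold, 7 higher and 2 lower in the neonatal group. This was 10.1% of the genes higher, against 5.41% of all mRNAs, and 2.90% lower, against 1.45% of all mRNAs. Among those higher, DUOX1 and SFN exceeded the 0.5 FPKM of the authors' filter only in neonatal lungs. Their place in the table thus rested on the group where they were high. The median log2(FC) of the 69 genes was 0.09, against 0.13 for all mRNAs. The split depended on scaling: 5 of 8 calls were higher with median-of-ratios scaling, 5 of 11 with quantile normalization and 2 of 5 relative to general epithelial genes.

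Among the secretory cell companions, 21 of 30 genes were measured, with 4 past the threshold higher, 2 lower and 15 not past it. Of all mRNAs, 5.41% were past it higher and 1.45% lower. CLDN10, a claudin enriched in club cells, was at 26.6, 14.9 and 11.7 FPKM in the fetal lungs and at 4.34 FPKM or less in every neonatal lung. It fell from 17.7 ± 7.87 to 4.17 ± 0.169 FPKM (log2(FC) -1.78, adjusted p = 0.0157). LCN2, a lipocalin that withholds iron from bacteria, fell from 65.1 ± 18.4 to 21.1 ± 4.25 FPKM (log2(FC) -1.57, adjusted p = 0.0157). LCN2 and CLDN10, named for their calls on the same lungs, were lower in each neonatal lung than in each fetal lung. Of the 21 companions, 11 were without overlap between the groups, some higher and some lower, beside 30.5% of all mRNAs.

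LYZ, LTF, PIGR and DUOX1 rose. LYZ, lysozyme, went from 2.24 ± 0.0361 to 11.8 ± 2.91 FPKM (log2(FC) 1.96, adjusted p = 0.00471), a call that held with any lung left out. LTF, the iron-binding lactotransferrin, went from 2.37 ± 1.33 to 8.48 ± 0.940 FPKM (log2(FC) 1.58, adjusted p = 0.0328). PIGR, the receptor that carries immunoglobulin A across the epithelium, had a log2(FC) of 1.43 (adjusted p = 0.0485), and DUOX1, an oxidase that makes hydrogen peroxide at the airway surface, had 0.97 (adjusted p = 0.0359). Every neonatal value of LYZ, LTF, PIGR and DUOX1, like those of BPIFB1, lay above every fetal value. With 1 lung left out, the log2(FC) kept its sign and lay between -2.02 and -1.46 for CLDN10, between -1.69 and -1.35 for LCN2, between 0.86 and 1.05 for DUOX1, between 1.22 and 1.83 for LTF and between 1.09 and 1.65 for PIGR. Calls were fewer with 5 lungs, as they were over all mRNAs. CLDN10 kept its call without Fetal1, Fetal3 or Neonatal1, LCN2 and DUOX1 without Neonatal1, LTF without Fetal3, and PIGR lost it with any lung left out. The adjusted p reached 0.0784 for CLDN10, 0.0623 for LCN2, 0.118 for DUOX1, 0.118 for LTF and 0.160 for PIGR in the other cases. Relative to general epithelial markers LTF, DUOX1 and PIGR were no longer past the threshold (adjusted p = 0.0599, 0.0799 and 0.0809), and PIGR missed it also without a variance trend (0.0508), with quantile normalization (0.0522), with pseudocounts of 0.5 (0.0565) and 0.1 (0.0734), and with median-of-ratios scaling (0.0638). The most abundant companions, CYP4B1, a cytochrome P450 of club cells, CLDN4 and MSLN, were not past the threshold. CYP4B1 had 424 ± 37.2 and 370 ± 99.0 FPKM (adjusted p = 0.664).

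LYZ and LTF are also made by macrophages and neutrophils, and markers of both were examined beside them. Of the 6 neutrophil markers measured, 3 were past the threshold, the calgranulins S100A8, S100A9 and S100A12, all higher, against 5.41% of all mRNAs. The FPKM of the list summed to 83.8 to 156 before birth and to 844 to 1317 after it, while ELANE, the elastase of neutrophil granules, was listed at 0 in the 3 neonatal lungs. Of the 6 macrophage markers 0 were past the threshold in limma and 4 had an unadjusted p under 0.05. All 6 had a log2(FC) above 0, and the sum was 268 to 638 FPKM before birth and 474 to 1137 FPKM after it. The part of these cells in the levels of LYZ, LTF and BPIFB1, and of LCN2, which fell, was not tested.

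**Figure D3:**
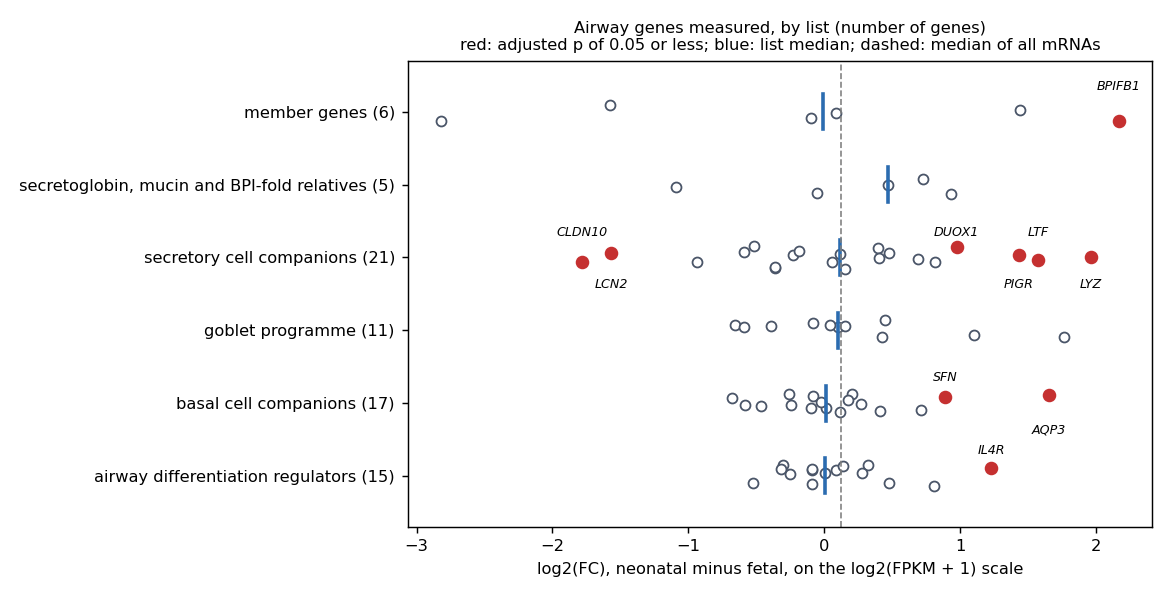
The log2(FC) of the members and of each measured gene of the 5 airway lists (circles, red and named where the adjusted p in limma is 0.05 or less), with the median of each list (blue) and that of all mRNAs (dashed, 0.13). Of the 9 calls in the lists, 6 are secretory cell companions, a list with 21 of the 69 genes measured. Of all mRNAs, 6.87% were called. LYZ, LTF, PIGR and DUOX1 lie to the right and LCN2 and CLDN10 to the left.

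The goblet programme had 0 genes past the threshold in limma of 11 measured, beside 6.87% of all mRNAs. A count of 0 among 11 genes does not show that they were unchanged. Under an unadjusted p of 0.05 were 2, given under the other observations, and the median log2(FC) was 0.10. Its most abundant genes were XBP1, a transcription factor of secretory cells, CLCA1, a secreted goblet cell protein, and AGR2, a chaperone for mucin folding. CLCA1 had 28.2, 52.3 and 42.9 FPKM in the fetal lungs and 43.9, 63.2 and 56.6 FPKM in the neonatal lungs, which overlap (adjusted p = 0.373). XBP1 ranged from 123 to 146 FPKM before birth and from 136 to 181 FPKM after it (adjusted p = 0.691). AGR2 had 14.5 ± 8.03 FPKM before birth and 8.57 ± 4.16 FPKM after it (adjusted p = 0.404). Among relatives of the members 5 of 18 genes were measured, with MUC15, LBP and BPI at the highest levels, and 0 were past the threshold in limma or had an unadjusted p under 0.05 (median log2(FC) 0.47). MUC15, a membrane mucin, stood at 4.30 ± 0.450 and 4.37 ± 2.12 FPKM (adjusted p = 0.931).

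Among the basal cell companions, 17 of 28 genes were measured and 2 were past the threshold, beside 6.87% of all mRNAs. AQP3, a water and glycerol channel of basal cells, rose from 4.22 ± 2.19 to 14.6 ± 2.71 FPKM (log2(FC) 1.65, adjusted p = 0.0258). SFN, a 14-3-3 protein of stratified epithelia, rose from 0.291 ± 0.178 to 1.38 ± 0.210 FPKM (log2(FC) 0.89, adjusted p = 0.0476). Its fetal values were all below the 0.5 FPKM of the authors' filter, so SFN was in the table only through its neonatal values. SFN lost its call with any lung left out (adjusted p up to 0.125, log2(FC) between 0.82 and 1.00). It also lost it with a pseudocount of 0.1 (0.0555), a filter of FPKM above 1 in 3 or more lungs (0.0546), quantile normalization (0.0620), median-of-ratios scaling (0.0647) and relative to general epithelial markers (0.129). AQP3 kept its call without Fetal2, and its adjusted p reached 0.108 without Neonatal3. The most abundant genes of the list were LAMB3 and LAMA3, chains of the laminin that anchors basal cells, and the desmosomal DSP, none of which passed the threshold (adjusted p = 0.246, 0.440 and 0.821). The median log2(FC) of the list was 0.01, as was that of the regulators of airway differentiation. Of the 15 regulators of airway differentiation measured, 1 was past the threshold, a share near the 6.87% of all mRNAs. This gene was IL4R, a receptor subunit for interleukin 4 and interleukin 13. It rose from 8.35 ± 2.72 to 20.6 ± 3.50 FPKM (log2(FC) 1.23, adjusted p = 0.0308), and kept its call without Fetal1 or Neonatal1, while the adjusted p reached 0.137 without Fetal2 and was 0.0732 relative to general epithelial markers. IL13RA1, which pairs with it, had 27.9 to 31.9 FPKM before birth and 25.6 to 36.0 FPKM after it (adjusted p = 0.980), and neither TGFBR2 nor ELF3 was past the threshold.

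Markers of the other parts of the airway wall were examined beside these results. As the background for their counts, 6.87% of all mRNAs were past the threshold, 5.41% higher and 1.45% lower. Of the 12 ciliated cell markers 0 were past the threshold in limma, 2 had an unadjusted p under 0.05 and 11 were lower in the neonatal group, with a median log2(FC) of -0.35. They summed to 112 to 198 FPKM before birth and to 112 to 130 FPKM after it. Cartilage markers, which come from the walls of larger airways, summed to 25.1 to 48.9 FPKM before birth and to 31.8 to 41.1 FPKM after it, with 0 of 10 past the threshold or at an unadjusted p under 0.05 in limma. Of 6 smooth muscle markers, 4 were past the threshold, all higher. Of 5 fibroblast markers 1 was, FN1, also higher, and none was among the 4 alveolar type I, 9 alveolar type II, 2 neuroendocrine and ionocyte, 6 endothelial, 5 lymphocyte and 4 erythroid markers measured. At an unadjusted p under 0.05 in limma were 1 alveolar type II, 2 endothelial and 1 lymphocyte marker of these, and 0 of the other 3 lists. The study, with Cuffdiff and qRT-PCR, reported the erythroid marker HBB as higher in fetal lungs. Here the log2(FC) of HBB was -0.77 (adjusted p = 0.346 in limma). General epithelial markers had a median log2(FC) of 0.40, and 1 of 8 was past the threshold. They did not move as one, with 5 above 0 and 3 below 0. Without overlap between the groups were 4 of 8, beside 30.5% of all mRNAs. EPCAM was lower in each neonatal lung, and CDH1, KRT18 and ST14 were higher. Relative to the general epithelial markers, BPIFB1 had a log2(FC) of 1.93 (adjusted p = 0.0226) and SCGB1A1 of -3.06 (adjusted p = 0.216). Relative to the ciliated markers, which were brought in later with the data known, these were 2.52 (adjusted p = 0.00515) and -2.46 (adjusted p = 0.207).

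**Figure D4:**
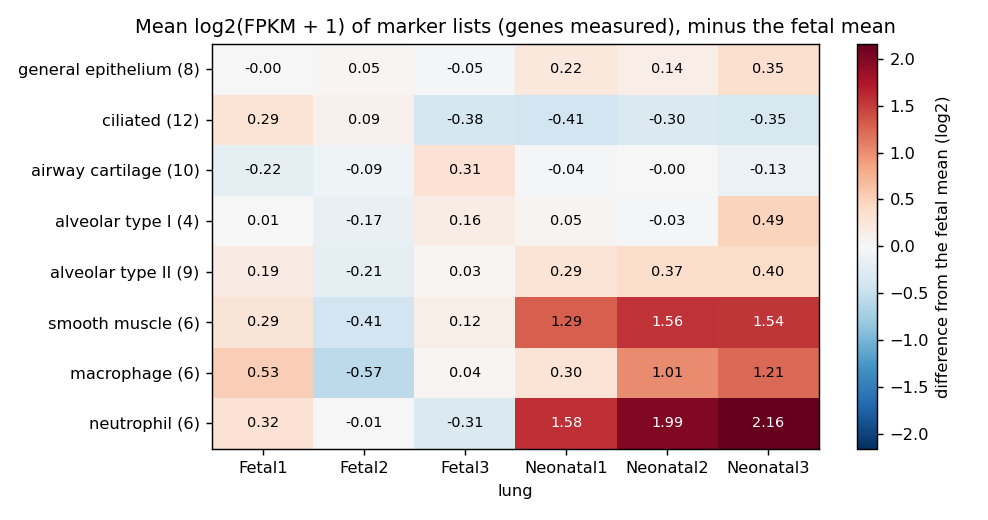
Mean log2(FPKM + 1) of 8 marker lists in each lung, minus the mean of the fetal lungs, as numbers and colours (red, higher; blue, lower). Neutrophil markers are higher by 1.58 to 2.16 and smooth muscle markers by 1.29 to 1.56 in the neonatal lungs, while ciliated markers lie between -0.41 and -0.30 there and between -0.38 and 0.29 in the fetal lungs.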

How the data were processed

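Per the labels and methods of the study, strand-specific Ribo-Zero libraries were sequenced in 6 lungs, and the authors mapped filtered reads to Sscrofa10.2 with TopHat2 2.1.0 and computed FPKM with Cufflinks 2.2.1. The deposited mRNA table gives FPKM for 14579 mRNAs, all above 0.5 FPKM in at least 1 sample. It holds no read counts, so no counting error is given. The table of lncRNAs was not used here. Symbols came from a reference table for 9478 mRNAs and from a supplementary table of the study for 329 more, of which 1998 rows were read. The values of the supplementary table were not used, and no sequence of the members was held.

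The study ran Cuffdiff on reads. Here log2(FPKM + 1) of all mRNAs was compared with limma 3.58.1 under R 4.3.3, letting the prior variance follow the mean level. The procedure was tested on simulated data. No filter beyond that of the authors was applied. Levels, exact permutation tests and figures used scipy 1.17.1, numpy 2.4.6, pandas 2.3.3 and matplotlib 3.10.9 in Python 3.11.15. Each piglet was 1 replicate.

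Named are all members found, list genes past the threshold, up to 3 genes of each airway list with the highest mean FPKM, and the 3 genes most like SCGB1A1 and each member past the threshold. The members and the lists were chosen with earlier results of these data known. Alternatives were pseudocounts of 0.5 and 0.1, quantile normalization, median-of-ratios scaling, a stricter filter (FPKM above 1 in 3 or more lungs), a replicate block, a prior variance without trend, values relative to general epithelial genes, and each lung left out. Values relative to ciliated markers were added after the data were seen.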

Additional observations from a re-analysis of the deposited data

How the results depend on the processing

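Leaving out each lung in turn gave 196 to 944 mRNAs past the threshold instead of 1001, with the lowest count without Fetal2, 0 or 1 of the 6 members and 1 to 5 of the airway genes instead of 9. The replicate numbers did not pair the lungs (correlations of the deviations of same-numbered lungs -0.0407, -0.0043 and 0.00047), and with the replicate block 401 mRNAs, 3 airway genes and 1 member, BPIFB1, were past the threshold. PIGR (adjusted p = 0.0808), SFN (0.115), DUOX1 (0.112), LCN2 (0.0612), AQP3 (0.0664) and IL4R (0.0906) were not. Relative to general epithelial genes 5 airway genes were. BPIFB1 kept its call and its direction in all alternatives that used the 6 lungs, with an adjusted p between 0.00515 and 0.0226. SCGB1A1 and SCGB3A2 kept their direction in all alternatives, without passing the threshold. Of all calls, 78.8% were higher in the neonatal group, 66.0% with median-of-ratios scaling, 57.9% with quantile normalization and 52.3% relative to general epithelial genes, while the median over all mRNAs moved from a log2(FC) of 0.13 to -0.0090, -0.04 and -0.11. It was 0.48 relative to ciliated markers.

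All reversals were among values not past the threshold, and their cause was not tested. The log2(FC) turned to -0.020 for CLDN4, -0.022 for XBP1 and -0.16 for IL13RA1 with median-of-ratios scaling. With quantile normalization it was -0.19 for CLDN4, -0.31 for XBP1, -0.11 for TGFBR2 and -0.27 for IL13RA1. Relative to general epithelial genes it was -0.15 for TP63, -0.084 for CLDN4, -0.083 for XBP1 and -0.23 for IL13RA1. Relative to ciliated markers it was 0.26 for SCGB3A1, 0.30 for MUC15, 0.12 for CYP4B1, 0.27 for DSP, 0.093 for LAMA3 and 0.27 for ELF3. With single lungs left out, the log2(FC) ranged from -0.81 to 0.44 for SCGB3A1, from -0.52 to 2.81 for BPIFA1, from -0.0033 to 0.19 for TP63, from -0.35 to 0.20 for MUC15, from -0.011 to 0.26 for CLDN4, from -0.21 to 0.0097 for DSP, from -0.25 to 0.040 for ELF3 and from -0.13 to 0.11 for IL13RA1. TP63 and DUOX1 had no value under the stricter filter. No read counts per gene were used, so the counting error of low values such as those of TP63 and DUOX1 is not given.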

Other observations

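Some airway genes outside the naming rule stood out in single lungs, and they were picked after their values were seen. BPIFB2, a relative of BPIFB1, had 0.0454, 3.48 and 1.42 FPKM in Fetal1, Fetal2 and Fetal3, was listed at 0 in Neonatal1 and Neonatal3 and had 0.172 FPKM in Neonatal2 (log2(FC) -1.09, not past the threshold). BPIFA1, BPIFB1 and BPIFB2 shared the same order in the fetal lungs, with Fetal2 highest and Fetal1 lowest. TFF3, a peptide secreted with mucins, was listed at 0 in 5 lungs and had 38.2 FPKM in Neonatal3, the lung with the highest SCGB3A1. GCNT3, an enzyme of mucin glycosylation, was at 0.0220 FPKM in Neonatal2, where SCGB1A1 was lowest, against 0.821 and 1.14 FPKM in the other neonatal lungs. KRT15 and NGFR, which mark basal cells with TP63, had 2.55 ± 0.632 and 2.85 ± 1.96 FPKM, and 0.442 ± 0.159 and 0.462 ± 0.454 FPKM (mean ± SD, n = 3). For DUOX2, a relative of DUOX1, the lowest neonatal value lay above the highest fetal one, without passing the threshold. Its means were 0.0321 ± 0.0382 and 0.843 ± 0.367 FPKM (mean ± SD, n = 3). DUOX2 too exceeded the 0.5 FPKM of the authors' filter only in neonatal lungs. In the goblet programme, CREB3L1 and GALNT5 had an unadjusted p under 0.05 in limma, and neither overlapped between the groups (30.5% of all mRNAs did not). CREB3L1 had 3.38 ± 0.448 FPKM before birth and 8.77 ± 3.08 FPKM after it (log2(FC) 1.10, adjusted p = 0.0596). GALNT5 had 5.15 ± 0.690 and 3.08 ± 0.373 FPKM (log2(FC) -0.59, adjusted p = 0.110).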
